A study of Mus musculus with 4 samples.

Results

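The genes described here carry out or control the handling of cholesterol: its synthesis, its uptake and movement inside the cell, and its efflux. A list of 31 genes, named by function, was taken as given, and 28 of them had a probe set that carried that gene's symbol alone, out of 18194 genes measured. For a gene with several probe sets, the brightest one, averaged over the 4 arrays, stands for it. Acat2, Nr1h2 and Soat1 were not analysed here for want of such a probe set. The study measured RNA from mouse bone marrow cells on 4 Affymetrix arrays, 2 labelled WT and 2 labelled Alox15-/-, to compare the expression of haematopoietic stem cells between the genotypes. All mice were C57BL/6 (B6) and 8 weeks old, and the cells of both groups were sorted as lineage-negative, c-Kit-positive and Sca-1-positive, a gate that holds multipotent progenitors as well as stem cells. The labels call the replicates biological but do not say how many animals gave each RNA, so p-values here reflect only how far these arrays spread, which may be technical. Values are log2 intensities, and a difference is the mean of the arrays labelled Alox15-/- minus the mean of the WT arrays.

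The transcript named in the genotype went against its label. Alox15, which encodes arachidonate 15-lipoxygenase, read 4.63 and 4.35 on the WT arrays, against 10.68 and 10.75 on arrays labelled Alox15-/-. The sources used here do not say whether this probe set lies in the deleted part. It may not check the deletion, and whether the group labels were exchanged could not be settled from these files. Every direction below is that of the labels, and an exchange would turn the sign of each difference. The gate's receptor gene Kit read 10.23 to 10.63 on the 4 arrays, whereas Ly6a, the gene of Sca-1, was not analysed here. Some markers of other cells lay below the highest of 27 bacterial control probe sets on every array, and most did not. Those below were 2 of 7 for T and NK cells (Cd3e, Cd3g), 1 of 6 for B cells (Ms4a1), 1 of 8 for erythroid cells (Hba-a1), 1 of 15 for macrophages and monocytes (Adgre1) and 2 of 8 for endothelial and stromal cells (Cdh5, Col1a2). For granulocytes 1 of 13 (Mmp8) lay below it on every array. Of the same lists, Cd247, Vpreb1, Car2, Lyz2, Pecam1 and Mpo had WT means of 10.51, 9.04, 12.96, 11.72, 8.97 and 12.57. That control read 4.95 to 5.17, and the probe set used for each of the 28 cholesterol genes lay above it on all 4 arrays.

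Cells make cholesterol from acetyl-CoA through mevalonate, squalene and lanosterol, and they also take it up in lipoproteins. The transcription factors SREBP1 and SREBP2, encoded by Srebf1 and Srebf2, sit in the endoplasmic reticulum with the sterol sensor SCAP. When sterols are scarce, SCAP carries them to the Golgi to be cut, and the released factors switch on the synthesis enzymes. When sterols are plentiful, INSIG proteins hold SCAP back, and oxysterols activate the liver X receptors (LXR), which switch on the efflux pumps ABCA1 and ABCG1. In blood-forming cells, the ABCA1 and ABCG1 pumps are known to restrain the expansion of stem and progenitor cells in mice.

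Upstream sequences were searched for elements through which SREBP is known to act on synthesis genes, and most of those genes held no exact sterol element. The stretches below run 5′ to 3′ on the gene's strand and come from RefSeq, build GRCm38.p6. They were chosen because they show the only exact sterol element found among the synthesis genes (Hmgcs1), near matches to it (Hsd17b7, Cyp51), and the upstream bases of genes with large negative differences below (Lss, Insig1). Capitals mark TCACNCCAC, a short form of the sterol regulatory element, with at most 1 mismatch, and CCAAT, the box bound by NF-Y, each on either strand, so that CCAAT on the other strand appears as ATTGG. They lie at chr13:119690101-119690350 on the plus strand (Hmgcs1), chr1:169969243-169969455 on the minus strand (Hsd17b7), chr5:4104698-4104947 on the minus strand (Cyp51), chr10:76531355-76531564 on the plus strand (Lss) and chr5:28071162-28071411 on the plus strand (Insig1). Each ends before the first annotated base of the gene. The annotation places a long noncoding RNA gene over part of the Hsd17b7 and of the Insig1 stretch, and no other gene over the other stretches.
Hmgcs1: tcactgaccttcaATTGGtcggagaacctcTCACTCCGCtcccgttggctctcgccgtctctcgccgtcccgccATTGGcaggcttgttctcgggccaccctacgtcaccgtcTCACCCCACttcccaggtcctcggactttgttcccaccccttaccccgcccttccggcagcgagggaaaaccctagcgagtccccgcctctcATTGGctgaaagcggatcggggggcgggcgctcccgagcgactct
Hsd17b7: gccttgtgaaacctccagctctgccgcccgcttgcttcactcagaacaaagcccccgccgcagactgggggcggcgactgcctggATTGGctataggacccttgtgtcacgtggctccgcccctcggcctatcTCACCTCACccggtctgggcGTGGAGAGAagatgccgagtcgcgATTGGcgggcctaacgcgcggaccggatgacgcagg
Cyp51: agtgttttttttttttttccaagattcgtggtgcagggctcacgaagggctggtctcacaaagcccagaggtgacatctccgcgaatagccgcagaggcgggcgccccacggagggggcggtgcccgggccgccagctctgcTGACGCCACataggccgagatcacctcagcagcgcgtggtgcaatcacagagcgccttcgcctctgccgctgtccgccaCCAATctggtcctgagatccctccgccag
Lss: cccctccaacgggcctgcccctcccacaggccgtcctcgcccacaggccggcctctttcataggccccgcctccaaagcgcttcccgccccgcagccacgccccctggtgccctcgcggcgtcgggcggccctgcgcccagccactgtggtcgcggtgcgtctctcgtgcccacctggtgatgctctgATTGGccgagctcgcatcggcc
Insig1: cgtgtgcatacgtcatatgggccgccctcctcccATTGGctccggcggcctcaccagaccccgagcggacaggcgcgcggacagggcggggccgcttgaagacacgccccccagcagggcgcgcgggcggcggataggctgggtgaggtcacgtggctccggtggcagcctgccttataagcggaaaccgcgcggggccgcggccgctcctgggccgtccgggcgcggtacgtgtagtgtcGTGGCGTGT

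In Hmgcs1 the exact element lay 137 to 129 bases before the start site, with a near match at 220 to 212 and 3 CCAAT boxes on the other strand. Hsd17b7 held 2 near matches and 2 CCAAT boxes, Cyp51 held 1 of each, and Lss held 1 CCAAT box and no near match. Insig1 held a near match in the last 9 bases before its start site and a CCAAT box at 216 to 212 bases before it. Over the 250 bases before each annotated start, the exact element was found for 1 of the 15 synthesis genes with an upstream window (6.67%), against 331 of 27025 RefSeq genes of all kinds (1.22%). With 1 mismatch allowed, 7 of the 15 (46.7%) and 6203 of the 27025 (23.0%) had a match. CCAAT was present for 14 of the 15 (93.3%), against 10133 genes (37.5%), and the GC box GGGCGG for 14 of the 15, against 9555 genes (35.4%). The E-box CACGTG was present for 3 of the 15 and for 1854 of all genes (6.86%). A pair of AGGTCA half-sites 4 bases apart, the form that LXR binds, with at most 2 mismatches in the pair, was present for 801 genes (2.96%), and for 1 of the 15, Dhcr7. The windows of Abca1 and Nr1h3 held none. Both strands were searched, motifs may overlap, and a gene counted if any of its windows matched. Fdps, Fdft1, Sqle, Abcg1, Npc1 and Stard4 had no window in the table used.

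Most cholesterol genes read slightly lower in the arrays labelled Alox15-/-, and none passed the test. Of the 28, 21 had a negative difference (75.0%) and 7 a positive one, with a median of -0.11 and a range from -0.71 for Lss to 0.36 for Sc5d. Over all 18194 genes 46.2% were negative and the median was 0.02. By limma, with Benjamini-Hochberg adjustment over all genes, 0 of the 28 had an adjusted p under 0.05, and their adjusted p ran from 0.611 to 0.993. Over all genes a single one, Alox15, passed (0.0055%). At an unadjusted limma p under 0.05, 3 of the 28 were found (10.7%), Fdft1, Lss and Insig1, all lower, against 7.77% of all genes in either direction and 3.57% in the lower direction. The arrays labelled Alox15-/- lay wholly below the WT arrays for 12 of the 28 genes (42.9%), against 17.1% of all genes, and wholly above them for 1 (3.57%), Sc5d, against 21.4%. Genes on the same arrays are not independent, and no test of the list as a whole was made.

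**Figure D1:**
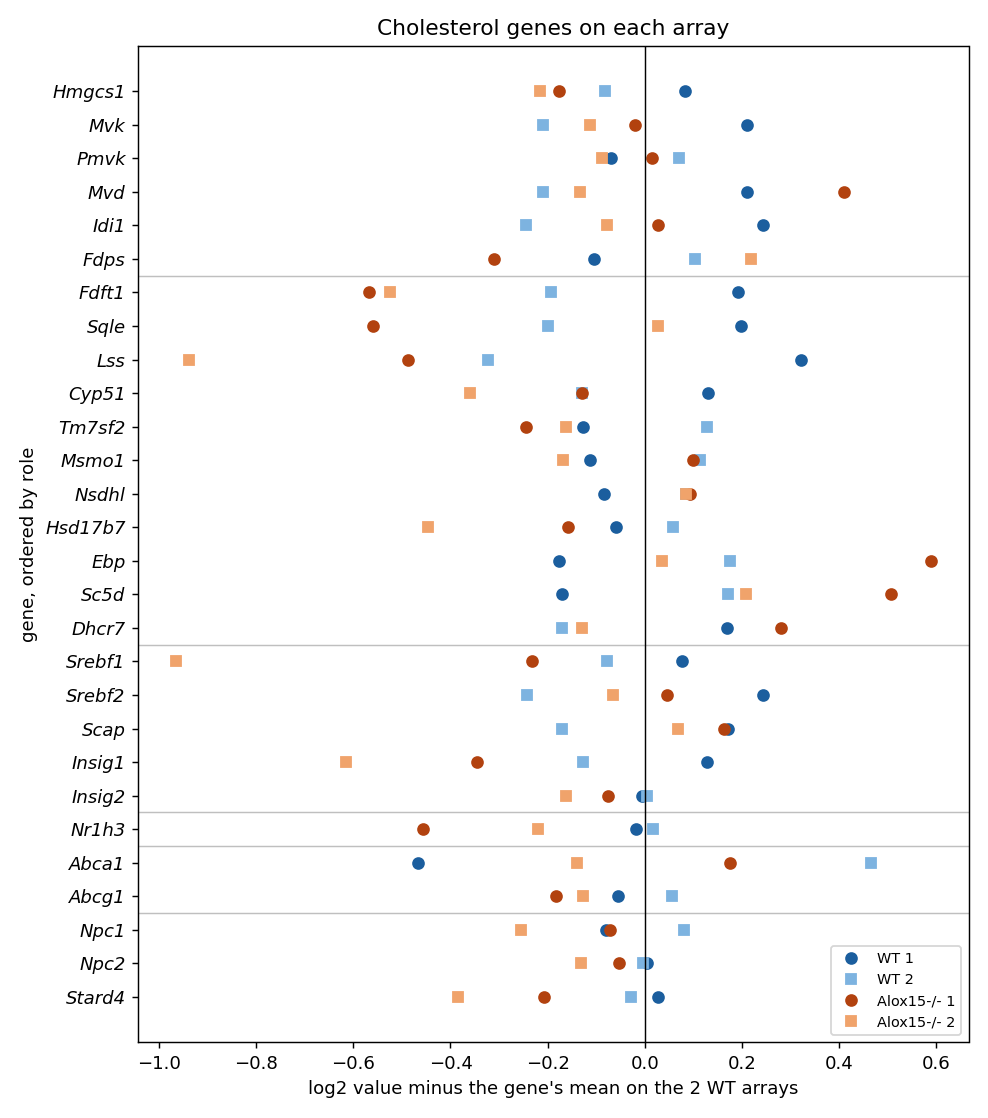
Log2 value of each of the 28 genes on each array, minus the gene's mean on the WT arrays (x axis), with genes on the y axis in the order of their roles and grey lines between roles. Blue points are the WT arrays and orange points the arrays labelled Alox15-/-, as circles for replicate 1 and squares for replicate 2. Lss, Fdft1, Insig1 and Srebf1 have both orange points to the left of both blue ones, whereas the WT arrays lie farthest apart for Abca1.

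Marker genes of the sorted cells and of other cells were read on the same arrays, and limma called 0 of them after adjustment. Under an unadjusted limma p of 0.05 lay 9 of 13 granulocyte markers, 7 of 19 G2/M genes and 3 of 15 macrophage and monocyte markers. So did 2 of 8 stem and progenitor markers, 2 of 7 for T and NK cells and 1 of 6 for B cells. For erythroid markers it was 1 of 8, and for endothelial and stromal markers 1 of 8, against 7.77% of all genes. Granulocyte markers read higher in the arrays labelled Alox15-/- for 12 of 13, with a summed level (linear scale) of 7746 and 8750 on the WT arrays and 12491 and 12511 on the others. Macrophage and monocyte markers read higher for 12 of 15, with sums of 4576 to 4934 in WT against 4923 to 5990 in arrays labelled Alox15-/-. G2/M genes read higher for 18 of 19, with sums of 20230 to 23593 and 23438 to 24652. The 1 that read lower was Mki67, by -0.63 without overlap. Without it the G2/M sums were 14900 and 17790 in WT and 19829 and 21095 in the others. Stem and progenitor markers read lower for 6 of 8, with sums of 14610 to 15291 and 12537 to 12632. For erythroid markers 3 of 8 read higher (sums of 8369 to 8542 and 7362 to 7487), for B cell markers 5 of 6 (875 to 1077 and 1298 to 2160), for T and NK cell markers 6 of 7 (3103 to 3324 and 3221 to 3237), and for endothelial and stromal markers 6 of 8 (974 to 1056 and 994 to 1142). Single genes carried much of some sums. Mpo made up 61.4 to 78.1% of the granulocyte sum, Lyz2 64.0 to 71.6% of the macrophage sum and Car2 93.0 to 94.4% of the erythroid sum. Without Car2 the erythroid sums were 484 and 476 in WT and 509 and 527 in the others, a turn in direction. Without Mpo the granulocyte sums were 1697 and 2653 in WT and 4821 and 4605 in the others. Without Lyz2 the macrophage sums were 1300 and 1447 in WT and 2155 and 1670 in the others, without overlap. Vpreb1 made up 50.5 to 76.6% of the B cell sum. Without it the B cell sums were 433 and 448 in WT and 505 and 595 in the others. The 3′ minus 5′ gap of the Gapdh controls, a measure of RNA ends, was 2.37 and 2.39 in WT, against 2.14 and 2.17 in arrays labelled Alox15-/-. The same gap of the Actb controls overlapped between the groups, at -0.23 and -0.19 in WT against -0.13 and -0.28. The part of the marker shifts and of the Gapdh gap in the differences of the cholesterol genes was not tested. In RNA from a mixed sort, fewer cells of a type and less RNA per cell cannot be told apart.

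The first steps, from acetyl-CoA to farnesyl diphosphate, had small differences between the groups. Of 6 measured genes 5 had negative differences, with a median of -0.04. Hmgcs1, which makes HMG-CoA, read 11.75 and 11.59 in WT, against 11.49 and 11.45 in arrays labelled Alox15-/-. The groups did not overlap, and the difference was -0.20 ± 0.14 (SE, n = 2 each; limma adjusted p = 0.765). Its other 4 probe sets gave -0.22, -0.16, 0.12 and 0.06, the last from a probe set below the bacterial control on all arrays. The kinase gene Mvk read 7.87 and 7.45 in WT against 7.63 and 7.54, and the second kinase gene, Pmvk, differed by -0.04. For Mvd, the decarboxylase that follows, the difference was 0.14, at 7.16 and 6.74 in WT against 7.36 and 6.82. For Mvk, Pmvk and Mvd the WT arrays lay farther apart than the group means, as they did for Idi1 and Fdps below. Idi1, which isomerises isopentenyl diphosphate, read 10.69 and 10.20 against 10.47 and 10.37, and Fdps, which makes farnesyl diphosphate, read 7.34 and 7.55 against 7.14 and 7.66. For each of these 5 genes the groups overlapped, and the 95% intervals of the differences, all within -0.59 to 0.75, held 0.

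At the probe sets used, the largest negative differences among the enzymes were those of Lss and Fdft1. With the mean of all probe sets of a gene that of Lss was -0.58, and that of Fdft1 was -0.014. Lss encodes lanosterol synthase, which folds the squalene epoxide into the first sterol. It read 10.17 and 9.53 on the WT arrays, against 9.36 and 8.91 on arrays labelled Alox15-/-. The groups did not overlap, with 0.17 between the nearest arrays, although the WT arrays themselves were 0.65 apart. The difference was -0.71 ± 0.27 (SE, n = 2 each; 95% interval -1.40 to -0.03; limma unadjusted p = 0.0436, adjusted p = 0.634), which is 1.64-fold. Its other probe sets gave -0.57 and -0.47, the latter with overlap and below the bacterial control on 3 of the 4 arrays. Without WT replicate 1 the difference was -0.39, and without WT replicate 2 it was -1.04.

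Fdft1, the squalene synthase, read 9.01 and 8.62 in WT, against 8.25 and 8.29 in arrays labelled Alox15-/-. All of the former lay above all of the latter, and the difference was -0.55 ± 0.17 (SE; limma unadjusted p = 0.0225, adjusted p = 0.611). The other probe sets of the gene did not share it, at -0.04, 0.30 and 0.23, and at the latter ones the arrays labelled Alox15-/- lay wholly above WT. Sqle, which oxidises squalene and is a rate-limiting step, read 8.57 and 8.17 in WT, against 7.81 and 8.40 in arrays labelled Alox15-/-. Those groups overlapped, with a difference of -0.27 ± 0.25 (SE) that was 0.03 without Alox15-/- replicate 1.

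After lanosterol, the enzymes that trim and desaturate the sterol pointed in both directions. Cyp51, which removes the 14-alpha methyl group, read 9.77 and 9.51 in WT, against 9.51 and 9.28 in arrays labelled Alox15-/-, so that WT replicate 2 and Alox15-/- replicate 1 were level. Its 3 probe sets gave -0.25, -0.23 and -0.51. Hsd17b7, a 3-ketosteroid reductase of the C4 demethylation, read 8.11 and 8.23 against 8.01 and 7.72, a difference of -0.30 ± 0.16 (SE) without overlap. A second probe set of that gene gave -0.61 without overlap, and the remaining ones, which were dimmer, gave 0.04 and 0.16. Tm7sf2, a sterol reductase, differed by -0.20, without overlap but with 0.035 between the nearest arrays. Msmo1, the sterol C4 oxidase, differed by -0.04 at the probe set used and by -0.57 without overlap at its other one, and Nsdhl, of the same C4 demethylation, differed by 0.09.

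Sc5d, the lathosterol desaturase, read 7.71 and 8.06 in WT, against 8.39 and 8.09 in arrays labelled Alox15-/-. At the probe sets used it was the only one of the 28 genes with all of the latter arrays above WT. The difference was 0.36 ± 0.19 (SE; limma adjusted p = 0.699), but its other probe sets gave -1.12 and -0.47, each without overlap in the opposite direction and with 1 or more arrays below the bacterial control. Ebp, the sterol isomerase, read 8.22 and 8.57 against 8.98 and 8.43, a difference of 0.31 ± 0.24 (SE) with overlap that ran from 0.036 to 0.59 in fits without 1 array. Dhcr7, which completes cholesterol, read 9.61 and 9.27 against 9.72 and 9.31, and differed by 0.08. Over the 11 genes from squalene to cholesterol the median was -0.20, with 7 negative and 4 positive.

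**Figure D2:**
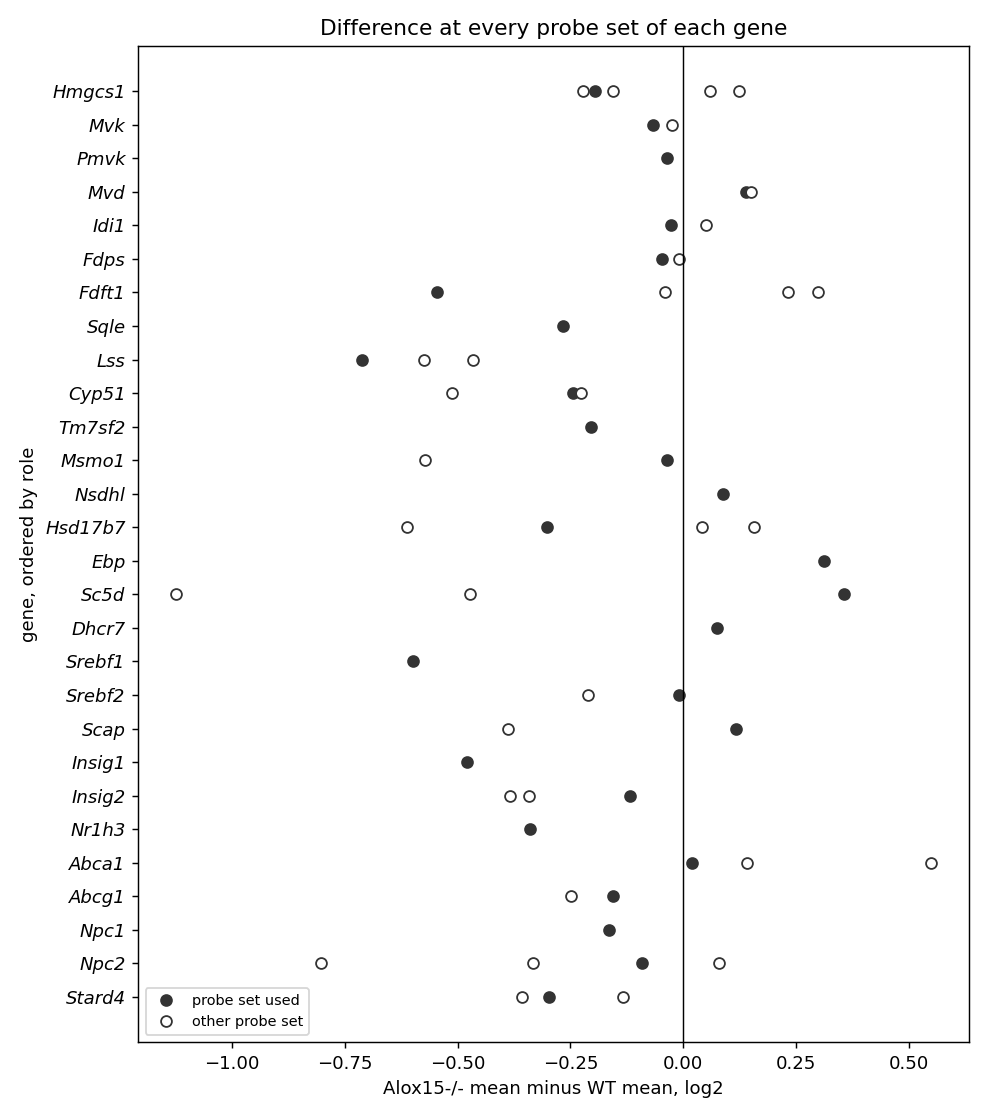
Difference between the group means on the log2 scale (x axis) at each of the 61 probe sets of the 28 genes (y axis, in the order of their roles). Filled points are the probe sets used and open points the other ones. All 3 probe sets of Lss, Cyp51, Insig2 and Stard4 lie left of 0, whereas those of Fdft1, Hsd17b7 and Sc5d lie on both sides.

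Probe sets of one gene read the same RNA samples and are not replicates, but they show how far a difference depends on the probe set chosen. Why they differ was not tested. Of the 61 probe sets, 43 had negative differences. Among the 18 genes with several probe sets, 9 were negative at every one, 7 had probe sets of both signs, and Abca1 and Mvd were positive at every one.

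Among the factors that control synthesis, Insig1 and Srebf1 had large negative differences and Srebf2 one near 0. Insig1, an SREBP target whose protein holds SCAP in the endoplasmic reticulum, read 10.36 and 10.11 in WT, against 9.89 and 9.62 in arrays labelled Alox15-/-. The groups were 0.22 apart at their nearest arrays, and the difference was -0.48 ± 0.17 (SE, n = 2 each; 95% interval -0.91 to -0.05; limma unadjusted p = 0.0335, adjusted p = 0.630). Leaving out any 1 array kept it between -0.62 and -0.35. Its paralog Insig2, which is not under the same SREBP control, read 8.49 and 8.50 against 8.42 and 8.33. The difference at that probe set was -0.12 ± 0.13 (SE), and the other probe sets of Insig2 gave -0.38 and -0.34, each without overlap.

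Srebf1, the factor that drives mainly fatty acid synthesis and is itself an LXR target, read 8.01 and 7.86 in WT, against 7.70 and 6.97 in arrays labelled Alox15-/-. The lowest value was that of Alox15-/- replicate 2, 0.73 below its own replicate. The difference was -0.60 ± 0.26 (SE; limma adjusted p = 0.675), and it was -0.23 without Alox15-/- replicate 2 and -0.97 without Alox15-/- replicate 1. Srebf2, the main factor for cholesterol synthesis, read 9.46 and 8.97 against 9.26 and 9.15, a difference of -0.01 ± 0.20 (SE) with the arrays labelled Alox15-/- between the WT arrays. Its second probe set gave -0.21. Scap read 8.45 and 8.11 against 8.45 and 8.35 and differed by 0.12, with -0.39 at its other probe set.

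The efflux pumps did not separate the groups in any shared direction. Abca1, which loads cholesterol onto apolipoprotein A-I, read 7.87 and 8.80 in WT, against 8.51 and 8.19 in arrays labelled Alox15-/-. The WT arrays were 0.93 apart and enclosed the others, and the difference was 0.02 ± 0.33 (SE, n = 2 each; 95% interval -0.80 to 0.84). It was -0.45 without WT replicate 1 and 0.49 without WT replicate 2, and the other probe sets gave 0.14 and 0.55. At the last of these the arrays labelled Alox15-/- lay wholly above WT, at 6.17 and 5.50 against 5.10 and 5.475. Abcg1, which passes cholesterol to high density lipoprotein, read 9.94 and 10.05 in WT, against 9.82 and 9.87 in arrays labelled Alox15-/-. These did not overlap, and the difference was -0.16 ± 0.13 (SE; limma adjusted p = 0.808), with -0.25 at the second probe set. Nr1h3, the gene of LXR-alpha, read 6.79 and 6.83 in WT, against 6.35 and 6.59 in arrays labelled Alox15-/-. That difference was -0.34 ± 0.14 (SE; limma adjusted p = 0.668), again without overlap.

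The comparison of SREBP-driven synthesis with LXR-driven efflux showed no gap beyond the spread of the arrays. The 17 synthesis enzymes had a median difference of -0.05, with 12 negative and 5 positive, and the pair Abca1 and Abcg1 had a median of -0.07. The medians were thus 0.02 apart. On each array, the median of the synthesis enzymes minus that of the efflux pair, with each gene centred on its mean over the 4 arrays, was 0.36 and -0.27 in WT, against -0.02 and -0.02 in arrays labelled Alox15-/-. The WT arrays lay on both sides of the others, and no shift of one class against the other exceeded their spread. Without WT replicate 1 the gap between the medians was 0.22 and without WT replicate 2 it was -0.29. Counting Nr1h3 with the efflux genes gave a gap of 0.11, and taking means in place of medians gave -0.03.

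**Figure D3:**
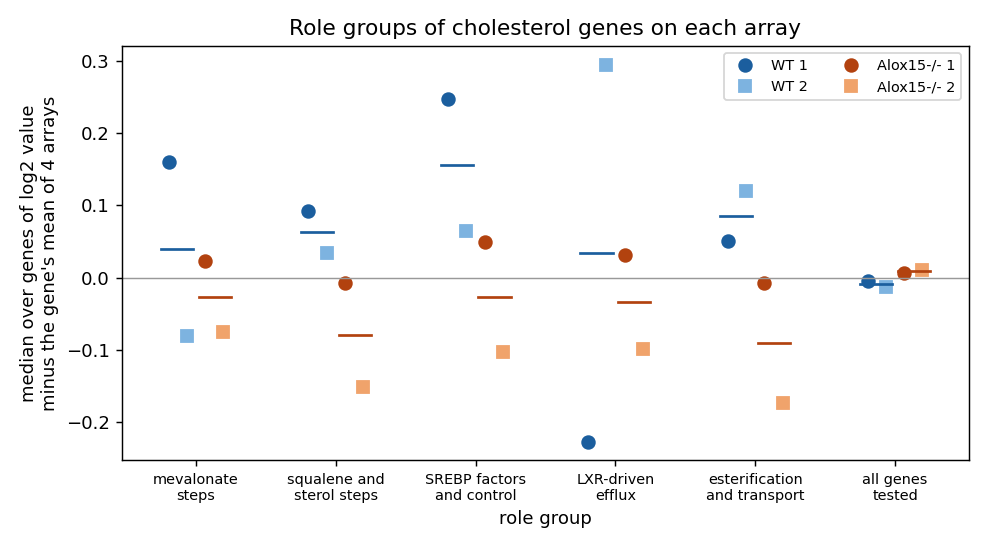
Median over the genes of a role group of the log2 value minus the gene's mean on the 4 arrays (y axis), for each array, with role groups on the x axis. Blue points are WT and orange points the arrays labelled Alox15-/- (circles, replicate 1; squares, replicate 2), and short lines are the means of each pair of arrays. For squalene and sterol steps, SREBP factors and transport genes the WT points lie above the orange ones, whereas for efflux the WT points are the outermost at -0.23 and 0.29.

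Of the genes that move cholesterol inside the cell, 3 were measured, and none passed the test. Stard4, a soluble sterol carrier and SREBP target, read 10.56 and 10.51 in WT, against 10.32 and 10.15 in arrays labelled Alox15-/-. The groups did not overlap, the difference was -0.30 ± 0.14 (SE; limma adjusted p = 0.677), and its other probe sets gave -0.13 and -0.36. Npc1, the membrane protein that exports cholesterol from lysosomes, read 8.94 and 9.10 against 8.94 and 8.76, a difference of -0.16 with overlap. Npc2, its soluble partner, read 12.01 and 12.00 against 11.95 and 11.87, a difference of -0.09 ± 0.13 (SE), with -0.80 to 0.08 at its other probe sets.

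**Figure D4:**
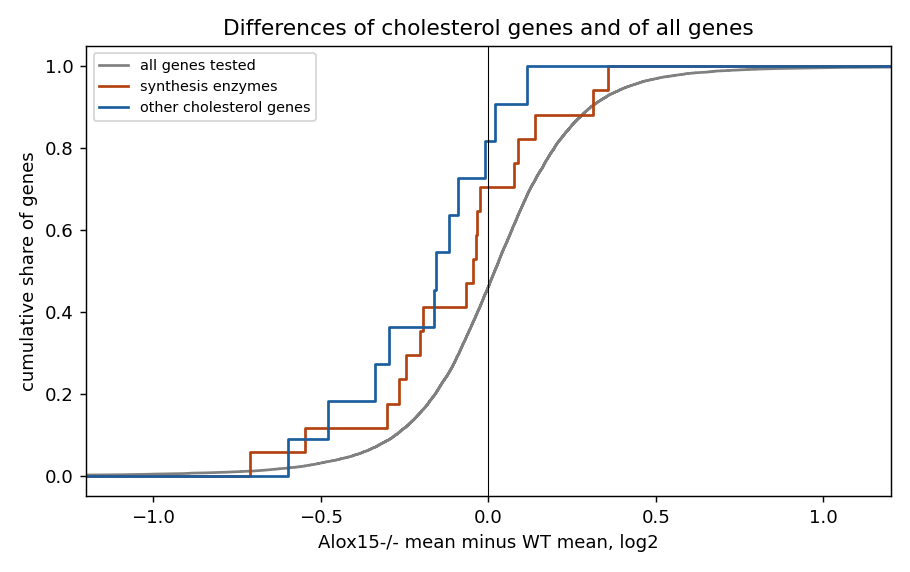
Cumulative share of genes (y axis) at or below a given difference, Alox15-/- mean minus WT mean on the log2 scale (x axis), for all 18194 genes (grey), the 17 synthesis enzymes (red) and the other 11 cholesterol genes (blue). At 0 both coloured curves lie above the grey one, with 70.6% of the synthesis enzymes and 46.2% of all genes below 0.

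Other genes of the pathway, from lists that held none of the 28, pointed in both directions. Of 53 listed genes 46 were measured, 24 with negative and 22 with positive differences, and 0 passed the limma test after adjustment. At an unadjusted limma p under 0.05 there were 5, Lrp1, Acss2, Gramd1a, Gramd1b and Cyp27a1, and 4 of these were negative. That is 10.9% of the 46, with 8.70% lower, against 7.77% and 3.57% of all genes. Of 7 further sterol synthesis and uptake genes 3 were negative, with a median of 0.04, and the lipoprotein receptor gene Lrp1 differed by -0.63 (0.31 at its other probe set). Of 10 fatty acid genes driven by SREBP 8 were negative, with a median of -0.08. Among them Acss2, which makes acetyl-CoA from acetate, read 8.56 and 8.78 in WT, against 8.09 and 8.16 in arrays labelled Alox15-/-, a difference of -0.55 ± 0.14 (SE; limma adjusted p = 0.575). Its other probe sets were also negative, down to -0.60. Of 7 genes of SREBP cleavage and INSIG turnover 4 were negative and 3 positive, and Erlin1 differed by 0.22 (-0.21 at its other probe set). Of 8 further LXR targets 2 were negative and 6 positive (median 0.07), and Mylip, a ubiquitin ligase for lipoprotein receptors, differed by 0.36 without overlap. Of 9 lysosomal, ester and sterol transport genes 5 were negative (median -0.03). Gramd1a, whose protein carries sterol from the plasma membrane to the endoplasmic reticulum, differed by -0.47 ± 0.13 and its relative Gramd1b by -0.40 ± 0.16 (SE, n = 2 each), both without overlap. Of 5 oxysterol enzymes 2 were negative (median 0.06), and Cyp27a1, the sterol 27-hydroxylase, differed by 0.80 ± 0.21 (SE; limma adjusted p = 0.575), with -0.16 at its other probe set.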

How the data were processed

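RNA of 4 sorted samples was hybridised to 1 array each. Per the submitters' processing notes, the authors ran RMA in Expression Console 1.1, and the deposited values are log2 intensities per probe set. RMA gives every array the same distribution of values, so a shift of most genes in one direction would not be seen. Names came from the platform annotation, in which 34958 of 45101 probe sets had 1 gene symbol. The number of arrays limits the precision.

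The table of 18194 genes was fitted whole by two-sided moderated tests (limma 3.58.1, R 4.3.3) without a block, and p-values were adjusted over all genes by Benjamini-Hochberg at 0.05. The code was tested on simulated data, and no dim genes were removed. The members and lists were chosen with earlier results of these data known. Measured members are all named. Of each further list at most 2 genes are named, those of smallest unadjusted p, and a few marker genes were named after their values were seen. Upstream windows came from RefSeq, build GRCm38.p6. Fits were repeated with other scaling, without dim genes, with other variance estimates or weights, with other probe set choices, with a replicate block and without each array.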

Additional observations from a re-analysis of the deposited data

How the results depend on the processing

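With 2 arrays a group, small differences could not be called. The count of cholesterol genes past the threshold was 0 in every alternative run, and their lowest limma adjusted p in any of them was 0.419. Over all genes the count was 22 with a mean-dependent prior variance, 2 with every named probe set tested and 0 without any 1 array. With the replicate number as a block it was 1 for all genes and 0 for the cholesterol genes. The numbers do not pair the arrays in the labels, and across genes the replicate differences of the groups correlated at -0.02.

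Of the 28 genes, 16 kept their sign in each of the 14 alternatives that held them, and 9 changed it in fits without 1 array alone. Removing dim genes, other variance estimates, array weights and the replicate block left each difference as it was. Those alternatives could therefore not change a sign. Tm7sf2 and Nr1h3 were not in the fit without the lowest 50 percent of genes. With the mean of all probe sets, Idi1 was 0.012, Sc5d -0.41 and Scap -0.14, Fdft1 moved from -0.55 to -0.014, Msmo1 from -0.04 to -0.30 and Npc2 from -0.09 to -0.29, and the medians were -0.28 for SREBP factors and -0.26 for transport genes. Without 1 array, differences ran from -0.28 to 0.14 for Mvk, -0.11 to 0.033 for Pmvk, -0.13 to 0.41 for Mvd, -0.27 to 0.22 for Idi1, -0.31 to 0.22 for Fdps, -0.56 to 0.026 for Sqle, -0.17 to 0.10 for Msmo1, -0.13 to 0.28 for Dhcr7, -0.25 to 0.23 for Srebf2, -0.055 to 0.29 for Scap and -0.45 to 0.49 for Abca1. The medians ran from -0.17 to 0.018 for mevalonate steps, -0.33 to 0.19 for efflux, -0.13 to -0.02 for all synthesis enzymes, -0.16 to -0.10 for squalene and sterol steps, -0.25 to -0.075 for SREBP factors and -0.26 to -0.0725 for transport genes. The cause of these shifts was not tested.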

Other observations

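The synthesis enzymes had a wider median spread between replicates of a group than all genes had. Between the WT arrays their median absolute difference was 0.34, against 0.19 over all genes, and between the arrays labelled Alox15-/- it was 0.27, against 0.15. Of the 17 enzymes, 4 lay at or below that median of all genes between the WT arrays, and 7 between the arrays labelled Alox15-/- (Hmgcs1, Mvk, Pmvk, Idi1, Fdft1, Tm7sf2 and Nsdhl). WT replicate 1 read above WT replicate 2 by 0.65 for Lss, 0.49 for Idi1, 0.42 for Mvk, 0.42 for Mvd, 0.40 for Sqle and 0.39 for Fdft1, while it read lower for Ebp (-0.35) and Sc5d (-0.34). Of the 17 enzymes, 9 read higher in WT replicate 1 and 8 in WT replicate 2. Between the arrays labelled Alox15-/-, 13 of the 17 (76.5%, against 48.9% of all genes) read higher in replicate 1, including Ebp (0.55), Mvd (0.54) and Lss (0.45), whereas Sqle (-0.59) and Fdps (-0.53) read lower. The absolute difference between the group means had a median of 0.20 for the enzymes, against 0.14 over all genes. It is a difference of means of 2 arrays, so it is not on the same footing as differences between single arrays. The enzymes and all genes were not matched for level. Of the 18194 genes 3887 lay below the bacterial control on all 4 arrays, against 0 of the 17 enzymes. None of these spreads was tested.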
